A study of Danio rerio with 18 samples.

Results

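The genes described here are those of the acid compartment of the cell, the lysosome, in brains of zebrafish that carry 0, 1 or 2 copies of a mutant mfn2 allele. They were chosen by symbol: every gene whose symbol starts with atp6v or atp6ap (the proton pump and its accessory proteins), every cathepsin (cts followed by a letter), and a few single genes, among them lamp1a, lamp1b, lamp2, hexa and grna. The rule found 51 of the 32057 gene IDs in the table. The pump held 27 of them (13 of the V1 sector, 9 of the V0 sector, 5 accessory), the enzymes 20 (16 cysteine cathepsins, 1 aspartic cathepsin, 1 serine cathepsin and 2 that are no cathepsins), and 3 were lysosomal membrane proteins and 1 progranulin. The symbol table holds no lamp1a beside lamp1b, so the gene it names lamp1 (ENSDARG00000100181) was taken for it. For 6 pump symbols 2 IDs each share the name, so these 12 IDs are printed with the ID and could not be assigned to the a or b copy.

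The lysosome breaks down proteins, lipids and sugars in an acid interior. The acid comes from the vacuolar ATPase, a rotary pump whose cytosolic V1 sector splits ATP and whose membrane V0 sector passes protons. The same pump fills synaptic vesicles, so in brain its subunits are abundant in neurons, whereas many cathepsins, proteases that work in the acid interior, are abundant in microglia, the resident phagocytes. Mfn2 (mitofusin) is a mitochondrial outer membrane protein that fuses mitochondria.

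Brain RNA was compared between wild-type (WT, mfn2 +/+), heterozygous (Het, +/-) and homozygous mutant (Hom, -/-) siblings bred from hu3528 carriers, with 6 libraries per genotype, 1 from each of 6 families. A family came from 1 mating of its own parent pair. Each library was made from 4 pooled brains, of 2 females and 2 males, at an age of 4 months. Siblings were genotyped at 2.5 months and from then on lived in 1 tank per genotype, so within a family genotype and tank cannot be told apart, and the labels describe Hom fish as less fit. Every parent carried 1 copy of the hu3528 allele, so all 3 groups share that background. In such pools, fewer cells of a type and less RNA per cell cannot be told apart.

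Values are normalized CPM, counts scaled to a common library size by TMM, which allow a gene to be compared between libraries but not with another gene. Total counts ran from 21945070 (Hom of family 3) to 42897654. The targeted gene mfn2 lay at 25.4 to 34.1 CPM in Hom, and at 119.9 to 140.2 CPM in WT and 67.8 to 86.4 CPM in Het outside family 2. In family 2 the library labelled WT had 75.2 CPM and the library labelled Het 117 CPM, which goes against these labels. Het of families 1 and 3 and Hom of family 3 stood apart from the other 15 libraries: between 1661 and 2985 of 10610 genes deviated over 2-fold there, against 40 to 134 elsewhere. In Hom of family 3, 19 of the 40 members with a mean of at least 10 CPM did so, against at most 3 in any other library, and 16 oocyte markers summed to 169 CPM, against at most 6.74 CPM elsewhere. Results are therefore given over all 18 libraries and without these 3. Defining neuron markers such as elavl3 and snap25 were well above 0 in all 18 libraries, as whole brain would hold.

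Across all 18 libraries, progranulin was the 1 member of 47 tested past the test between Hom and WT, and it rose. A count of 1 in 47 is close to the share called among all genes, 1.92%. Pump genes lay mostly below their WT level in Hom (21 of 26 tested, median log2 fold change -0.26) and enzymes mostly above it (14 of 17 tested, median 0.48), while the median over all genes tested was 0.04. None of these pump or enzyme genes passed edgeR's test over all 18 libraries. DESeq2 called 3 pump and 4 enzyme genes, beside 5.18% of all genes. Of the pump genes it called, atp6v0e1 was higher and atp6v1a (ENSDARG00000034534) and atp6ap1lb were lower. The enzyme genes it called were all higher. Without the 3 libraries that stand apart, 15 of 47 members passed, beside 8.05% of all genes. Of these members, 8 cathepsins and grna rose, and 5 pump genes and 1 cathepsin, ctsf, fell. No member passed the test between Het and WT.

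The test was edgeR's quasi-likelihood test with family as a block, with p-values adjusted by the Benjamini-Hochberg method over all genes tested and a threshold of 0.05. In Hom against WT it called 1.92% of 20353 genes over all 18 libraries, 1.49% higher and 0.423% lower. Without the 3 libraries it called 8.05% of 20586 genes, 4.77% higher and 3.29% lower. Leaving out family 2, whose labels mfn2 goes against, left 0 members past the test in Hom against WT, beside 1.19% of all genes, with 1 pump gene higher and 4 lower, and 6 enzyme genes higher and 1 lower, at an unadjusted p under 0.05, beside 12% of all genes. Leaving out both family 2 and the 3 libraries left 9, beside 5.85%. A fit without the family block called 2 members, grna and ctsc, beside 1.68% of all genes. DESeq2 called 8 of 47 over all 18 libraries, beside 5.18% of all genes.

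**Figure D1:**
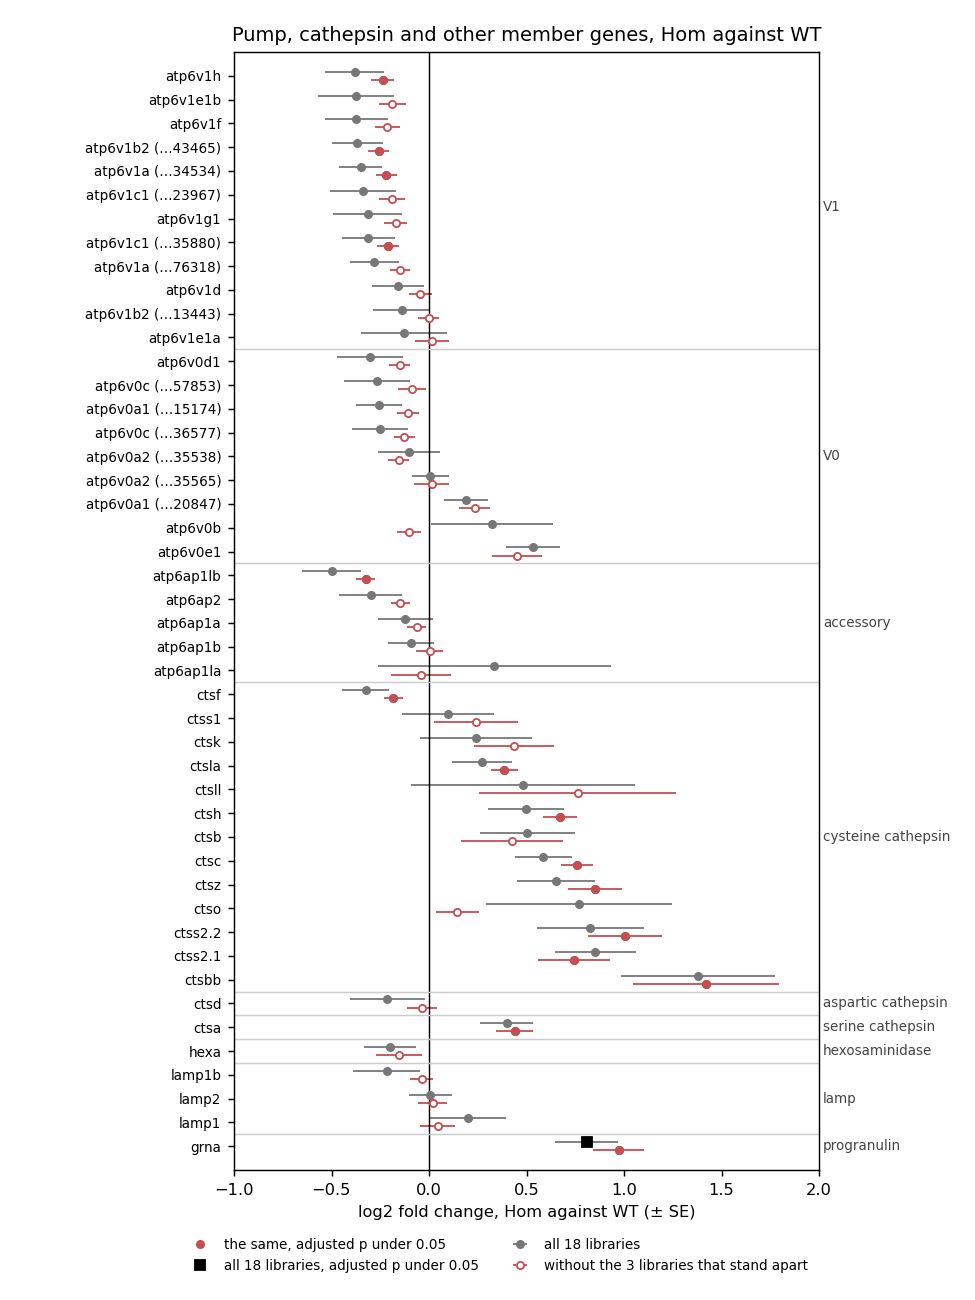
Log2 fold change of Hom against WT with its SE (x axis) for 46 tested members (y axis), grouped by role. Grey points are the fit over all 18 libraries, in which the black square, grna at 0.81, passed the test. Red points are the fit without the 3 libraries that stand apart, filled where the adjusted p was under 0.05. V1 genes lie left of 0 in the first fit and most cathepsins right of it.

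The V1 sector, which splits ATP, lay below WT in Hom for 12 of 12 tested genes, with log2 fold changes from -0.38 to -0.13 and a median of -0.33. None of the 12 passed edgeR's test over all 18 libraries, and 6 had an unadjusted p under 0.05, beside 14.3% of all genes in either direction. DESeq2 called 1 of them lower, atp6v1a (ENSDARG00000034534, adjusted p = 0.0242), beside 1.8% of all genes. With the 3 libraries left out 11 of 12 were below WT, the median was -0.19, and 4 passed, all lower, beside 3.29% of all genes. Leaving out family 2 as well left 1, atp6v1b2 (ENSDARG00000043465), beside 1.98% of all genes lower. The genes atp6v1a, atp6v1h and atp6v1c1 lost their calls there (edgeR adjusted p = 0.0515, 0.0572 and 0.0739).

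Of these, atp6v1b2 (ENSDARG00000043465), a B subunit that binds nucleotide beside the catalytic site, had a lowest, median and highest value of 507, 539 and 578 CPM in WT, 512, 567 and 656 CPM in Het and 264, 458 and 492 CPM in Hom. All 6 Hom libraries lay below all WT and all Het libraries, the lowest being Hom of family 3. It fell by 0.26 ± 0.05 (SE) on the log2 scale without the 3 libraries (edgeR adjusted p = 0.011), and the change over all 18 was -0.37 ± 0.13 (adjusted p = 0.219).

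The catalytic A subunit atp6v1a (ENSDARG00000034534) showed 564, 595 and 611 CPM in WT (lowest, median, highest), 446, 558 and 631 CPM in Het and 296, 498 and 551 CPM in Hom. Hom and WT did not overlap, while Het overlapped with both. The Het value of 446 CPM was that of family 3, and without the 3 libraries that stand apart Het ran from 534 to 631 CPM. The change in Hom against WT was -0.35 ± 0.11 (edgeR adjusted p = 0.161) over all 18 libraries and -0.22 ± 0.05 (edgeR adjusted p = 0.0275) without the 3.

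The H subunit, which the pump needs for activity, is encoded by atp6v1h, with 323, 343 and 408 CPM in WT, 337, 367 and 424 CPM in Het and 146, 291 and 314 CPM in Hom. Again all Hom libraries were below all WT and all Het libraries. Its change was -0.38 ± 0.15 (adjusted p = 0.271) over all 18 and -0.24 ± 0.06 (edgeR adjusted p = 0.0264) without the 3.

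The C subunit, through which V1 holds on to V0, is encoded by atp6v1c1 (ENSDARG00000035880), with 107, 119 and 129 CPM in WT, 108, 122 and 144 CPM in Het and 59.3, 105 and 109.6 CPM in Hom. Here the highest Hom libraries reached into the WT range. It passed without the 3 libraries at -0.21 ± 0.06 (edgeR adjusted p = 0.0427), not with them at -0.31 ± 0.13 (adjusted p = 0.313).

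The G subunit of the outer stalk, atp6v1g1, one of the 3 V1 genes with the highest mean CPM together with the A and B subunits above, did not pass in either fit. It ran from 483 to 641 CPM in WT (median 565), from 529.6 to 686 CPM in Het (median 607) and from 212 to 539 CPM in Hom (median 508). The groups overlap, and Hom of family 3 lay far below the other Hom libraries, which began at 468 CPM. The other 7 tested V1 genes did not pass in either fit. The last V1 gene, atp6v1c2, had 56 counts over all libraries together and was not tested.

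Summed over the 13 V1 genes, the level was 3525 to 4097 CPM in WT, 3567 to 4486 CPM in Het and 1659 to 3497 CPM in Hom. Hom of family 3 gave the 1659, and the other 5 Hom libraries began at 3096 CPM. Summed V1 levels in Hom thus did not overlap with those of WT or Het. Over 16 neuron markers the sum was 12787 to 14714 CPM in WT and 10941 to 13294 CPM in Hom, or 10941 to 12700.3 CPM without Hom of family 3. Of these markers 0 of 16 passed the test in Hom against WT over all 18 libraries, beside 1.92% of all genes. Without the 3 libraries 4 of 16 passed, all lower, beside 3.29% of all genes lower. Over 9 oligodendrocyte markers the sum was 13605 to 21083.5 CPM in WT and 7169 to 18745 CPM in Hom. Over 12 radial glia markers it was 4958 to 6630 CPM in WT and 4175 to 5918 CPM in Hom. Hom of family 3, lowest in V1, was lowest in both these sums and highest among Hom in the neuron sum. The part of neuron or other cell type RNA in the V1 values was not tested.

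**Figure D2:**
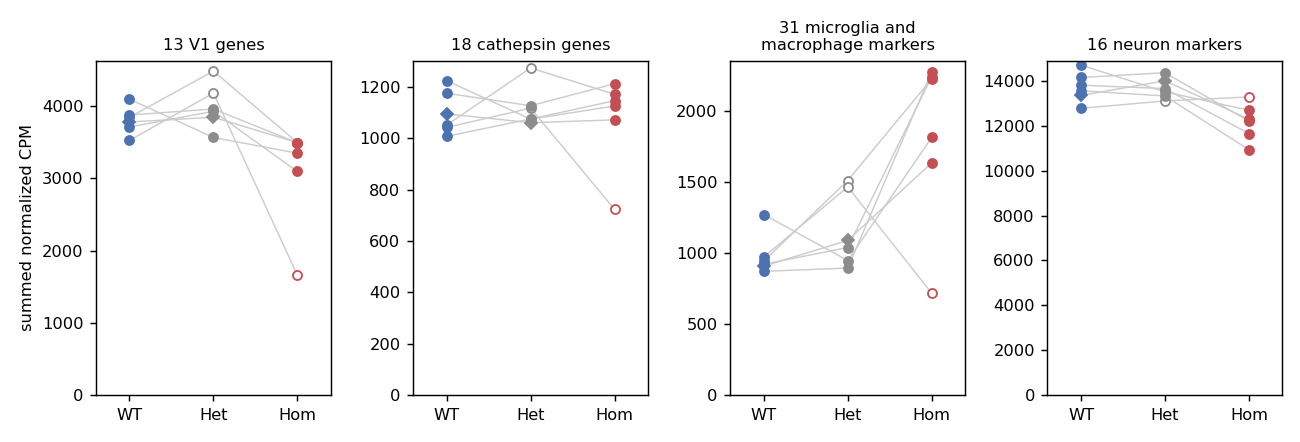
Summed normalized CPM (y axis, from 0) in each library by genotype for 4 lists. Grey lines join siblings of a family, open points are the 3 libraries that stand apart, and diamonds are the libraries labelled WT and Het of family 2. V1 sums of Hom end at 3497 CPM, below the lowest WT at 3525 CPM, and the marker sum of microglia and macrophages in Hom is 1636 CPM or more except in family 3.

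The V0 sector, the membrane part, did not move as 1 group. Of 9 tested V0 genes 5 lay below WT in Hom and 4 above, with a median of -0.10, and 0 passed the test in either fit. Without the 3 libraries that stand apart 6 lay below and 3 above, again with a median of -0.10. Summed over the 9 V0 genes, the level was 2073 to 2285 CPM in WT and 1751 to 2153 CPM in Hom, so these groups overlapped. The proteolipid of the rotor ring, atp6v0c (ENSDARG00000036577), had 711, 796 and 900.2 CPM in WT, 769, 816 and 949 CPM in Het and 366, 758 and 792 CPM in Hom. Apart from Hom of family 3 its groups overlap, and the change was -0.25 ± 0.15 (adjusted p = 0.465) over all 18 libraries.

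Its second ID, atp6v0c (ENSDARG00000057853), showed 412, 446 and 532 CPM in WT, 413, 464 and 492 CPM in Het and 186, 413 and 464 CPM in Hom. The d subunit atp6v0d1, which couples the ring to the central stalk, showed 331, 362 and 392 CPM in WT, 357, 369 and 452 CPM in Het and 144, 332 and 348 CPM in Hom. All Hom libraries were below all Het libraries for atp6v0d1 but overlapped with WT. Neither gene passed, at -0.27 ± 0.17 (adjusted p = 0.524) and -0.30 ± 0.17 (adjusted p = 0.448).

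In the opposite direction, the small e subunit atp6v0e1 had 5.88, 7.48 and 11.6 CPM in WT, 7.34, 8.42 and 13.02 CPM in Het and 9.65, 11.7 and 13.96 CPM in Hom. It missed the threshold in both fits, at 0.53 ± 0.14 (edgeR adjusted p = 0.0808) and 0.45 ± 0.13 (adjusted p = 0.0514), and passed in DESeq2 (adjusted p = 0.014). It was named after its values were seen. For the b subunit atp6v0b the positive log2 fold change of 0.32 came from Hom of family 3 at 783 CPM, where the other 17 libraries lay between 156 and 211 CPM. With the 3 libraries left out that change was -0.10.

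Among the 5 accessory genes, atp6ap1lb, named for its likeness to the assembly subunit atp6ap1, had 99.1, 103 and 117 CPM in WT, 103, 111 and 121 CPM in Het and 37.8, 82.0 and 87.8 CPM in Hom. All 6 Hom libraries lay below every WT and every Het library. It fell by 0.33 ± 0.05 on the log2 scale without the 3 libraries (edgeR adjusted p = 0.00188), with all 5 families lower, while over all 18 the change was -0.50 ± 0.15 (adjusted p = 0.141). The prorenin receptor gene atp6ap2 showed the same lack of overlap, at 308 to 350.1 CPM in WT and 136 to 302 CPM in Hom, but did not pass in either fit. In all, 5 members, all of the pump, had every Hom library below every WT library, beside 1.42% of all genes tested, and 1, grna, had every Hom library above, beside 1.62%.

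Of the cathepsins, 13 of 15 tested lay above WT in Hom, with a median of 0.50 (0.44 without the 3 libraries). Over all 18 libraries none passed edgeR's test, and 7 higher and 1 lower had an unadjusted p under 0.05, beside 14.3% of all genes in either direction. DESeq2 called 4 (ctsbb, ctsc, ctss2.1 and ctsz), all higher, beside 3.38% of all genes higher. The summed level of the 18 cathepsins was 1007 to 1224 CPM in WT, 1060.3 to 1273 CPM in Het and 723 to 1212 CPM in Hom, so the groups overlapped. The lowest Hom value was that of family 3, and the other 5 Hom libraries lay between 1071 and 1212 CPM. In WT, ctsf and ctsd averaged 590.01 and 182 CPM of a mean sum of 1099 CPM. In the fit without the 3 libraries 8 of 15 rose, beside 4.77% of all genes, and 1 fell, beside 3.29%. Leaving out family 2 as well left 6 higher and 0 lower, beside 3.87% and 1.98% of all genes. There ctsf, ctss2.1 and ctsbb lost their calls (edgeR adjusted p = 0.06, 0.0828 and 0.0919). In Hom of family 3, 10 of the 15 were below the WT sibling library, against 1 to 6 of the 15 in the other 5 families.

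The clearest case was ctsc, the dipeptidyl peptidase that in mammals activates granule proteases of immune cells. It had 18.4, 22.9 and 25.7 CPM in WT, 21.0, 22.3 and 25.3 CPM in Het and 19.2, 36.2 and 40.1 CPM in Hom. Apart from the 19.2 CPM of family 3, every Hom library was at 34.6 CPM or more, above all WT and Het libraries. It rose by 0.76 ± 0.08 on the log2 scale without the 3 libraries (edgeR adjusted p = 0.000252), against 0.59 ± 0.15 (adjusted p = 0.0655) with them.

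The aminopeptidase ctsh had 12.6, 13.2 and 14.7 CPM in WT, 11.9, 14.1 and 20.4 CPM in Het and 8.95, 20.5 and 23.7 CPM in Hom. Its Hom libraries other than family 3 began at 19.7 CPM, above every WT library, while Het of family 1 reached 20.4 CPM. It rose by 0.67 ± 0.09 without the 3 libraries (edgeR adjusted p = 0.000703), against 0.50 ± 0.19 (adjusted p = 0.262) with them.

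The carboxypeptidase ctsz had 9.54, 11.5 and 14.4 CPM in WT, 10.5, 11.3 and 16.98 CPM in Het and 8.85, 18.3 and 27.4 CPM in Hom. Outside family 3 the Hom libraries spread widely, from 14.7 to 27.4 CPM, with families 2 and 6 just above the highest WT library. It rose by 0.85 ± 0.14 without the 3 libraries (edgeR adjusted p = 0.00325), against 0.65 ± 0.20 (adjusted p = 0.14) with them.

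Cathepsin S is a protease that helps prepare antigen fragments for presentation in mammalian phagocytes, and zebrafish have several copies. The copy ctss2.2 ran from 7.68 to 13.5 CPM in WT (median 11.9), from 7.92 to 21.0 CPM in Het (median 11.2) and from 9.99 to 28.4 CPM in Hom (median 20.5). The copy ctss2.1 ran from 2.21 to 3.85 CPM in WT, from 2.05 to 7.06 CPM in Het and from 3.48 to 8.85 CPM in Hom. Both overlap between groups, and the highest ctss2.1 value was that of Hom of family 3, where ctss2.2 was at its lowest among Hom.

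The gene ctss2.2, without the 3 libraries, rose by 1.01 ± 0.19 (edgeR adjusted p = 0.00772) and ctss2.1 by 0.74 ± 0.19 (edgeR adjusted p = 0.0294). Over all 18 libraries they stood at 0.83 ± 0.27 (adjusted p = 0.18) and 0.85 ± 0.21 (adjusted p = 0.0597). The remaining copy, ctss1, did not pass in either fit, at 0.10 and 0.24. The copies are similar genes, so how reads were shared between them is uncertain.

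The endopeptidase ctsla, a cathepsin L, had 117, 139 and 171 CPM in WT, 129.8, 141 and 178 CPM in Het and 91.2, 185 and 209 CPM in Hom. The Hom libraries outside family 3 overlapped with WT at their lower end, at 157 CPM in family 2. It rose by 0.39 ± 0.07 without the 3 libraries (edgeR adjusted p = 0.00576), against 0.27 ± 0.15 (adjusted p = 0.454) with them.

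The serine carboxypeptidase ctsa, which in mammals also protects other lysosomal enzymes from breakdown, had 14.5, 16.6 and 17.7 CPM in WT, 14.96, 17.7 and 23.1 CPM in Het and 17.1, 22.6 and 27.3 CPM in Hom. Among Hom only family 3 fell within the WT range. It rose by 0.44 ± 0.10 without the 3 libraries (edgeR adjusted p = 0.0151), against 0.40 ± 0.14 (adjusted p = 0.196) with them.

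A minor cathepsin B copy, ctsbb, was near the limit of the depth, at 0.188 to 0.751 CPM in WT and 0.447 to 2.05 CPM in Hom. It rose by 1.42 ± 0.38 without the 3 libraries (edgeR adjusted p = 0.0381), and was at 1.38 ± 0.40 (adjusted p = 0.113) with them. Its Hom and WT libraries overlap.

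Cathepsin F (ctsf) went against the others. It had 481, 601 and 705 CPM in WT, 526.02, 582 and 719 CPM in Het and 288, 505 and 598 CPM in Hom. The groups overlap, but in each of the 6 families Hom lay below its WT sibling. It fell by 0.18 ± 0.05 without the 3 libraries (edgeR adjusted p = 0.0352), and stood at -0.32 ± 0.12 (adjusted p = 0.246) with them.

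The aspartic protease ctsd, a major lysosomal protease, had 161, 179 and 207 CPM in WT, 163, 188 and 213 CPM in Het and 65.5, 183 and 191 CPM in Hom. The Hom value of 65.5 CPM was that of family 3, and the other Hom libraries lay within or just below the WT range. The changes were -0.21 ± 0.19 (adjusted p = 0.657) with the 3 libraries and -0.04 ± 0.08 (adjusted p = 0.824) without them. With ctsf and ctsla it was among the 3 cathepsins of highest mean CPM.

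For ctso the log2 fold change of 0.77 came from Hom of family 3 at 64.1 CPM, against 4.36 to 7.56 CPM in the other 17 libraries, and it was 0.15 without the 3 libraries. The other 3 tested cathepsins, ctsb, ctsk and ctsll, did not pass in either fit. Of the cathepsins, ctsl.1, ctslb and ctslb.4 had 46, 1 and 7 counts over all libraries together and were not tested.

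**Figure D3:**
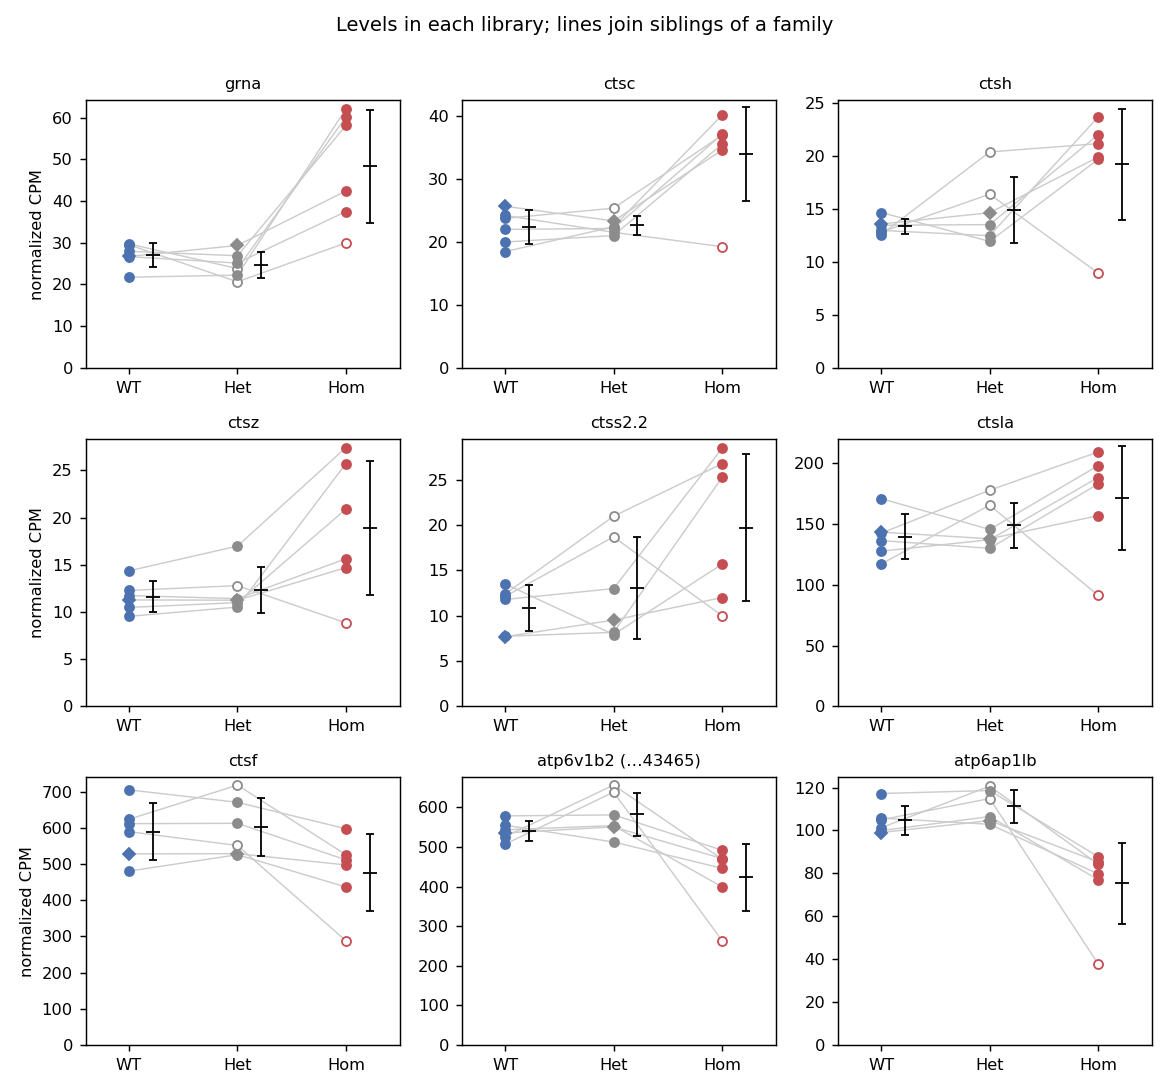
Normalized CPM (y axis, from 0) in each library by genotype for 9 members. Grey lines join siblings of a family, open points are the 3 libraries that stand apart, diamonds are the libraries labelled WT and Het of family 2, and black bars show the mean and SD of 6 libraries. All Hom libraries of grna lie above every WT and Het library, those of ctsc, ctsh and ctsz above every WT library except in family 3, and all those of atp6v1b2 and atp6ap1lb below every WT and Het library.

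Hexa, which encodes a subunit of hexosaminidase, the enzyme that trims gangliosides, did not pass. It had 8.19, 15.5 and 21.4 CPM in WT, 11.1, 12.9 and 18.4 CPM in Het and 8.69, 13.9 and 16.5 CPM in Hom, at -0.20 ± 0.13 (adjusted p = 0.537). The 3 genotypes overlap almost wholly.

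The membrane glycoproteins that line the lysosome did not pass either. Lamp2 had 89.6, 97.4 and 124 CPM in WT, 81.1, 100.1 and 133 CPM in Het and 85.3, 103 and 118 CPM in Hom, at 0.01 ± 0.11 (adjusted p = 0.982). Lamp1b had 81.2, 103 and 112 CPM in WT, 89.7, 108 and 137 CPM in Het and 46.6, 89.8 and 118 CPM in Hom, at -0.22 ± 0.17 (adjusted p = 0.618). Lamp1 had 16.2, 17.1 and 20.8 CPM in WT, 9.81, 15.1 and 18.7 CPM in Het and 13.02, 18.9 and 33.8 CPM in Hom, at 0.20 ± 0.20 (adjusted p = 0.682). The lowest lamp1b and the highest lamp1 values among Hom were both those of family 3, and without the 3 libraries the changes were -0.04 and 0.04.

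Progranulin (grna) encodes a secreted glycoprotein that is delivered to lysosomes, and loss of its human counterpart causes frontotemporal dementia. In families 1 to 6, WT libraries had 29.7, 26.7, 29.5, 28.0, 21.7 and 26.7 CPM. Het libraries had 23.8, 29.4, 20.6, 26.9, 22.2 and 25.1 CPM. Hom libraries had 60.2, 42.4, 30.0, 58.1, 62.1 and 37.5 CPM. Every Hom library was above every WT and every Het library, with Hom of family 3 just above the highest WT library, and WT and Het overlapped.

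Grna rose in Hom against WT by 0.81 ± 0.16 on the log2 scale, or 1.75-fold (edgeR adjusted p = 0.0232, higher in 6 of 6 families). In Hom against Het it rose by 0.95 ± 0.16, or 1.93-fold (edgeR adjusted p = 0.00989, 6 of 6 families). The call against WT was lost in 5 of 6 fits that left out 1 family, all but family 3, with an adjusted p of up to 0.132 (0.0613 without family 2), and in 8 of 18 fits that left out 1 library, namely WT of families 1, 2, 4, 5 and 6 and Hom of families 1, 4 and 5, with an adjusted p of at most 0.0834. The call against Het was lost in 2 of 6 fits that left out 1 family, families 1 and 4, with an adjusted p of up to 0.072. Leaving out the 3 libraries that stand apart gave 0.97 ± 0.13 (adjusted p = 0.000882).

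In Het against WT 0 of 47 members passed, with 0 at an unadjusted p under 0.05 and 0 in DESeq2. Of all genes 0 passed (0% of 20353), with 524 (2.57%) at an unadjusted p under 0.05 and 2 in DESeq2. The targeted gene mfn2 itself did not pass in this comparison, at -0.54 ± 0.16 (edgeR adjusted p = 0.903). Pump and enzyme medians were 0.09 and 0.06 over all 18 libraries, and -0.001 and -0.05 without the 3. Grna stood at -0.14 ± 0.16 (adjusted p = 0.903) over all 18 libraries. In family 2 these differences compare libraries whose mfn2 goes against the labels.

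Hom against Het shares the Hom libraries with the first comparison. Over all 18 libraries grna was the 1 member past the test, beside 1.99% of all genes (1.19% higher). Without the family block ctsc joined it, beside 2.08% of all genes. DESeq2 called 9 members over all 18 libraries, beside 7.99% of all genes. Of these, grna, ctsbb, ctsc and ctss2.1 were higher, beside 3.88% of all genes. The others, atp6v1b2 (ENSDARG00000043465), atp6v1f, atp6v1h, atp6ap1lb and ctsf, were lower, beside 4.11%. Medians were -0.31 for the pump and 0.35 for enzymes, and V1 genes were lower in Hom for 12 of 12. After leaving out the 3 libraries 10 of 47 members passed, beside 4.77% of all genes: 7 cathepsins (ctsbb, ctsc, ctsh, ctsla, ctss2.2, ctsz and ctsa) and grna rose, beside 2.93% higher among all genes, and atp6v1b2 (ENSDARG00000043465) and atp6ap1lb fell, beside 1.83% lower. Over all 18 libraries 6 members, all of the pump, had every Hom library below every Het library, beside 1.96% of all genes.

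**Figure D4:**
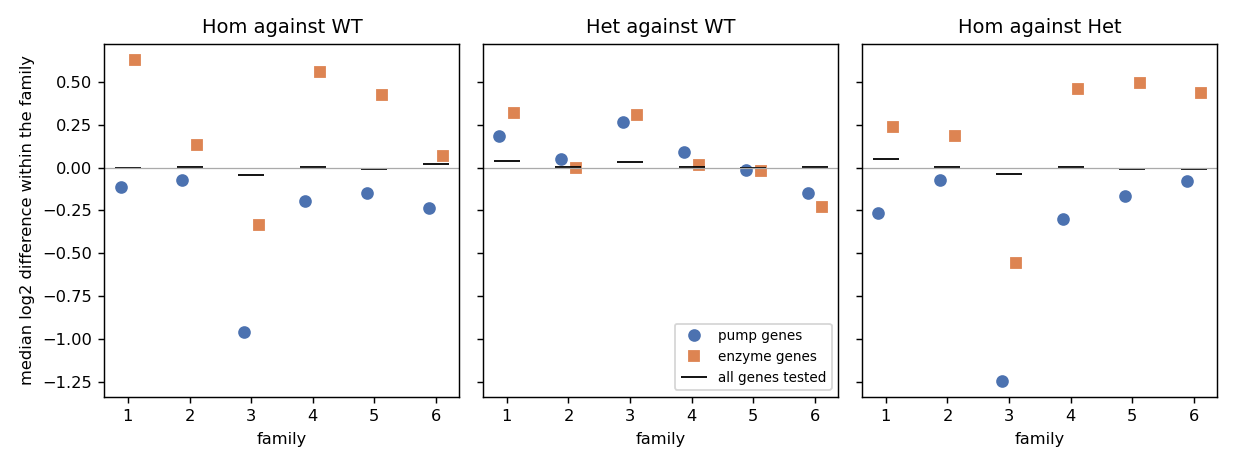
Median log2 difference within each family (y axis) for tested pump genes (circles), enzyme genes (squares) and all genes tested (dashes), by family (x axis) and comparison. In Hom against WT the pump median lies below 0 in all 6 families and the enzyme median above 0 in all but family 3.

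Within families, the pump median in Hom against WT was -0.11, -0.07, -0.96, -0.19, -0.15 and -0.24 in families 1 to 6. The enzyme median was 0.63, 0.13, -0.34, 0.56, 0.42 and 0.07. In each family the enzymes thus lay above the pump, and in family 3 both lay below WT. The medians over all genes tested ranged from -0.04 to 0.02. In Het against WT the medians had both signs, from -0.15 to 0.27 for the pump and from -0.23 to 0.32 for enzymes, with the highest values in families 1 and 3, whose Het libraries stand apart.

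Microglia and macrophage markers were also higher in Hom. A list of 23 symbols matched 31 gene IDs, of which 25 were tested. Of the 25, 6 rose in Hom against WT over all 18 libraries, beside 1.49% of all genes. Without the 3 libraries 17 rose, beside 4.77%, and 0 fell in either fit. The summed level of the 31 was 871 to 1271 CPM in WT and 894 to 1511 CPM in Het. In Hom it was 717 CPM in family 3 and 1636 to 2277 CPM in the other 5 libraries. The highest Het sums, 1511 and 1466 CPM, were those of families 1 and 3. In the Het libraries of these families ctss2.2, ctsh, ctsla, ctsa, ctsk and ctsd were also highest among Het. So was the summed V1 level of the pump, at 4486 and 4182 CPM, against 3567 to 3961 CPM in the other Het libraries. A high level in these 2 libraries was thus not particular to cathepsins and microglia markers. Not every member followed, and the other tested cathepsins were not highest in both. In Het of families 1 and 3 grna had 23.8 and 20.6 CPM, against 22.2 to 29.4 CPM in the other Het libraries. For ctsc these values were 25.3 and 21.5 CPM, against 21.0 to 23.3 CPM. The highest ctsz value among Het was that of family 4, at 16.98 CPM. Apoeb and cd74a lead the sum, no marker of the list had 0 counts in total, and among the markers that rose without the 3 libraries were mpeg1 (ENSDARG00000055290), csf1ra, irf8 and p2ry12. Their part in the cathepsin and grna results was not tested.

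Other lysosome genes, from lists of 131 non-members of which 125 were tested, gave 4 calls in Hom against WT over all 18 libraries. Of the 125, 3 rose, beside 1.49% of all genes, and 1 fell, beside 0.423%. The sulfatase gnsb rose by 0.66 ± 0.14 (edgeR adjusted p = 0.0276), the cation channel tpcn2 by 1.23 ± 0.28 (adjusted p = 0.039) and the thioesterase ppt2a.1 by 1.13 ± 0.26 (adjusted p = 0.0449). The glucocerebrosidase receptor scarb2a fell by 0.50 ± 0.11 (adjusted p = 0.0357). In Hom against Het 4 rose and 1 fell, beside 1.19% and 0.801% of all genes.

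Of the 125, without the 3 libraries, 16 rose and 7 fell in Hom against WT, beside 4.77% and 3.29% of all genes. Hydrolases and cofactors gave 8 higher and 0 lower of 56, and membrane and transport genes 4 higher and 1 lower of 29. The phagocyte lysosome proteins cd68 and laptm5 rose by 0.89 ± 0.10 (edgeR adjusted p = 0.000263) and 0.77 ± 0.13 (adjusted p = 0.00419). Both are also found in microglia and macrophages. Cd68 stood at 306 CPM in Hom of family 3 and at 15.9 to 49.1 CPM in the other 17 libraries.

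Genes for assembly and regulation of the pump gave 0 calls of 13 in Hom against WT over all 18 libraries, and 5 lower and 1 higher without the 3, beside 3.29% and 4.77% of all genes. Among them rogdi and dmxl2, parts of the complex that joins V1 to V0, fell by 0.33 ± 0.05 (edgeR adjusted p = 0.00218) and 0.26 ± 0.05 (adjusted p = 0.00874). The pump-associated rnasek (ENSDARG00000104458) fell by 0.33 ± 0.05 (adjusted p = 0.00349), while the second ID of that name, rnasek (ENSDARG00000069461), rose by 0.88 ± 0.18 (adjusted p = 0.0106). Dmxl2 and the second rnasek were named after their values were seen. Of 9 genes of mTORC1 and Ragulator, which sense nutrients at the lysosome, 0 passed in either fit, with medians of -0.10 and -0.08. Of 5 transcription factors of lysosome genes, 0 passed in Hom against WT over all 18 libraries, and tfe3 rose without the 3, by 0.55 ± 0.16 (edgeR adjusted p = 0.049). In Hom against Het mitf (ENSDARG00000003732), also a pigment cell regulator, rose by 2.32 ± 0.37 over all 18 libraries (adjusted p = 0.00548). Of 5 tested markers of pigment and osteoclast-like cells 1 rose there, beside 1.19% of all genes. It was pmela, at 1.07 ± 0.18 (edgeR adjusted p = 0.00829). The part of pigment cell RNA in the mitf value was not tested. The summed level of the 5 transcription factors was 9.37 to 14.2 CPM in WT, 7.48 to 12.9 CPM in Het and 14.3 to 22.7 CPM in Hom. The highest Hom value was that of family 3, and Hom did not overlap with WT or Het. Tfe3, mitf and pmela were named after their values were seen.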

How the data were processed

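The authors deposited whole-number read counts per gene for 18 libraries in 1 table without normalization; all columns were matched by name. STAR 2.7.0a, featureCounts, Subread 1.5.2 and GRCz11 are named, per the submitters' processing notes; the annotation release, strand setting and treatment of multi-mapping reads are not given in the sources used, so overlapping, antisense and near-identical genes are uncertain.

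Counts were tested with edgeR 4.0.16 (R 4.3.3, limma 3.58.1): TMM, filterByExpr by genotype (minimum count 10, minimum total 15), glmQLFit and glmQLFTest with genotype and family over all 18 libraries, prior count 0.125. SE is the absolute log2 fold change over the square root of F. DESeq2 1.42.0 was an alternative. The scripts were tested on simulated data with 200 changed genes. Within-family differences used log2(normalized CPM + 0.5). Lists were described by counts and medians, with no set test. SEs rest on the spread left after genotype and family were fitted, and depth limits genes of few counts.

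Members, lists and comparisons were chosen with earlier results of these data known. Values per library are given for members that passed, for the single genes, and for the 3 of highest mean CPM in V1, V0 and cathepsins; members that passed only without the 3 libraries that stand apart, and atp6v0e1, atp6v0b, ctso and atp6ap2, were chosen after their values were seen. Non-members were named by smallest p, at most 8, beside those the text marks. List symbols with no match were tried again without the paralog suffix, which was decided with the symbol table in view. Counts of markers and of other list genes are counts of gene IDs, and several IDs can share a symbol. Of 39 members with a unique symbol, 37 matched RefSeq genes of GRCz12tu; no coordinates or sequences are used here. The values of 1 member are not reported here by name; it stays in the counts and medians. No member symbol lies on chromosome 8, that of mfn2, in that assembly.

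Families pair the libraries because the labels give each as siblings of 1 mating. Deviations from the genotype means correlated at a median of 0.178 over 18 same-family pairs, 8 of them under 0.1, against -0.083 over 90 other pairs. Every pair of libraries differed by more than sampling noise (chi-square per degree of freedom of 7.10 or more).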

Additional observations from a re-analysis of the deposited data

Results flagged for a closer look

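A check for a single library far from the other 5 of its genotype covered 72 groups of 6. They include members named because they passed without the 3 libraries that stand apart. The rate of about 1 in 20 that chance gives therefore does not apply. Such a library was found in 13 groups, and in 11 of these it was Hom of family 3. It was low for atp6v0c (ENSDARG00000057853) at 186.4 CPM against 374 to 464 CPM, atp6v0d1 at 144.4 against 296 to 348 CPM, atp6v1a (ENSDARG00000034534) at 295.7 against 462 to 551 CPM and atp6v1c1 (ENSDARG00000035880) at 59.35 against 91.6 to 109.6 CPM. It was also low for atp6v1g1 at 212.1 against 468 to 539 CPM, atp6v1h at 146.2 against 282 to 314 CPM and atp6ap1lb at 37.78 against 77.0 to 87.8 CPM. Among enzymes it was low for ctsd at 65.51 against 159.7 to 191 CPM, ctsc at 19.24 against 34.6 to 40.1 CPM and ctsh at 8.947 against 19.7 to 23.7 CPM. It was high for lamp1, at 33.75 against 13.02 to 20.5 CPM. The same library is 1 of the 3 that stand apart across all genes.

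The other 2 cases were in other libraries. WT of family 5 had 117.2 CPM of atp6ap1lb, where the other WT libraries had 99.1 to 106 CPM. Het of family 4 had 16.98 CPM of ctsz, where the other Het libraries had 10.5 to 12.8 CPM.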

How the results depend on the processing

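The number of members past the test in Hom against WT, 1 over all 18 libraries, was 8 with DESeq2, 2 with no replicate block, 15 without the 3 libraries that stand apart and 9 without these and family 2, a setting chosen after seeing the data. In Hom against Het, also 1, it was 9, 2, 10 and 8, beside 7.99%, 2.08%, 4.77% and 2.84% of all genes. Leaving out 1 library gave 0 to 8 and 1 to 7, and leaving out 1 family 0 to 7 and 0 to 8. DESeq2 size factors and no low-count filter left both at 1, and Het against WT stayed at 0 in all 30 alternatives. The highest of these counts came without Hom of family 3 or without family 3. The family block changed no call besides ctsc.

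Pump and enzyme medians kept their sign in Hom against WT and in Hom against Het under each alternative run (with the DESeq2 test, -0.26 and 0.41 in Hom against WT), at -0.30 to -0.13 and 0.27 to 0.55 in Hom against WT when 1 library or family was left out. In Het against WT both lay near 0 and took either sign. Grna stayed positive in both comparisons and passed in 17 and 28 of 30 alternatives, with an adjusted p of at most 0.132 and 0.072.

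Signs were followed for the single genes and for the 3 of highest mean CPM in V1, V0 and cathepsins. In Het against WT only grna was followed. Other members were not followed here, and atp6v0b in Hom against WT also turned without the 3 libraries. Among the changes followed, signs turned only for those that passed in no fit. Over all 18 libraries these ranged from -0.27 (ctsd, Hom against Het) to 0.20 (lamp1, Hom against WT). Of the changes followed, those that turned without the 3 libraries were grna in Het against WT (0.014) and, in Hom against Het, ctsd (0.045) and hexa (0.11). Without family 2 as well, they were ctsd in Hom against WT (0.029) and, in Hom against Het, ctsd (0.097) and hexa (0.21). In Hom against Het, lamp2 was -4.6e-05 with no low-count filter and -0.0030 with no replicate block. Leaving out 1 library gave -0.021 to 0.31 for lamp1 and -0.055 to 0.070 for lamp2 in Hom against WT, and -0.099 to 0.065 for hexa and -0.057 to 0.11 for lamp2 in Hom against Het. Leaving out a family turned lamp2 in Hom against WT (family 6, -0.051) and, in Hom against Het, hexa (family 1, 0.038, and family 2, 0.0038) and lamp2 (families 1, 4 and 6, -0.0012, -0.026 and -0.081). The cause was not tested.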

Other observations

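Cathepsin B (ctsb), a protease of broad specificity, differed more between families than between genotypes. In WT it had 19.7, 135, 76.4, 125, 65.1 and 132 CPM in families 1 to 6, a 6.84-fold range, and family 1 was also lowest in Het, at 34.5 CPM. In Hom it ran from 74.9 CPM in family 5 to 165 CPM in family 4. The log2 fold change of Hom against WT was 0.50 ± 0.24 (edgeR adjusted p = 0.372), with 5 of 6 families higher. Hexa was lowest of its genotype in all 3 libraries of family 1, at 8.19, 11.1 and 8.69 CPM, whereas ctsb in Hom of family 1 was at 85.2 CPM.

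Over the 6 WT libraries the coefficient of variation had a median of 7.53% over 26 tested pump genes and 14.3% over 17 tested enzyme genes. The lowest was 3.04% and the highest 33.2% among pump genes, and 5.63% and 58.4% among enzymes. The highest enzyme value was that of ctsbb, at a WT mean of 0.37 CPM, and the next that of ctsb, at 50.2% and 92.1 CPM. The part of low counts in this spread was not tested. The highest pump value belonged to atp6ap1la, which had 1.03 and 2.36 CPM in Het of families 1 and 3 and 56.1 CPM in Hom of family 3, against 10.6 to 25.7 CPM in the other 15 libraries.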
